A study of Homo sapiens with 4 samples.

Results

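EC359 is a small molecule that inhibits the LIF receptor, and the genes followed here encode that receptor, its partner chains and the cytokines of the same family. The set was chosen by gene symbol. It holds 10 of the 23228 gene symbols in the count tables, namely the receptor chains LIFR, IL6ST, OSMR, IL6R and IL11RA and the ligands LIF, IL6, IL11, CLCF1 and CTF1. All 10 were found in the tables, and 8 had enough counts to be tested, CTF1 and IL11RA being the exceptions. The cells were ES2, which is an established line of human ovarian cancer, grown in RPMI medium with fetal bovine serum. They received EC359 (10 nM) or the vehicle alone (0.1% DMSO), and RNA was isolated 12 h later. Each treatment had 2 libraries, 4 in all, described by the study as biologically independent samples. All 4 come from one cell line at a single dose and time, and p-values measure only the spread between these libraries.

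Reads counted on genes numbered from 25572494 to 31707553 per library, and both EC359 libraries were the deeper ones. Of the cell type markers examined, the keratins KRT7 and KRT18 had at least 6304 counts in every library, KRT8 had 556 to 770 and KRT19 had 5 to 23. The mesenchymal genes VIM and FN1 had at least 57655. The epithelial adhesion genes EPCAM and CDH1 had at most 2 counts in any library. Of 4 ovarian carcinoma markers, MUC16 and EMX2 were at 0 counts throughout, PAX8 had 24 to 41 counts and WT1 had 76 to 119. The leukocyte genes PTPRC, CD3E, CD14 and ITGAM had at most 2 counts each.

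Cytokines of the IL6 family share one signaling chain, gp130, which is encoded by IL6ST. LIF and cardiotrophin 1 (CTF1) bind LIFR, which pairs with gp130, whereas oncostatin M can use either LIFR or OSMR beside gp130. IL6 and IL11 first bind their own chains, IL6R and IL11RA, which do not signal themselves and bring gp130 chains together. CLCF1 uses CNTFR together with LIFR and gp130. Within the cell, JAK kinases bound to these receptors phosphorylate STAT3, and SOCS3 shuts the signal off.

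Promoter sequences are shown for IL6ST and IL11, the receptor chain and the ligand with the lowest p values below, and for LIFR, the target of EC359. They are the 250 bases before the annotated start, 5′ to 3′ on the gene's strand, taken from RefSeq (GRCh38.p14). Capitals mark matches to any of 4 motifs searched on both strands, which were TTCNNNGAA for STAT factors, TGANTCA for AP-1, TGACGTCA for the cAMP response element and an NF-kB motif of 10 bases with 1 of them free. IL6 is added because its window held the NF-kB match.
IL6ST, chr5:55994964-55995213, minus strand: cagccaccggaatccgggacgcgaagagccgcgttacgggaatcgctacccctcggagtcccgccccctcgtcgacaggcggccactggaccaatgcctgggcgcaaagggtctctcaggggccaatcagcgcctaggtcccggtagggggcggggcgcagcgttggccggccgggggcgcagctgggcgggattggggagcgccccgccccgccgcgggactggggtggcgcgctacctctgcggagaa
IL11, chr19:55370464-55370713, minus strand: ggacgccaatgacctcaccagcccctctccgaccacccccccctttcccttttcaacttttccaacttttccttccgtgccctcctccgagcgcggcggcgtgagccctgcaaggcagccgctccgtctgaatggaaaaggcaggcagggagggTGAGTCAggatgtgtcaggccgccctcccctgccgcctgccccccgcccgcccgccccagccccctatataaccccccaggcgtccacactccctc
LIFR upstream start, chr5:38595406-38595655, minus strand: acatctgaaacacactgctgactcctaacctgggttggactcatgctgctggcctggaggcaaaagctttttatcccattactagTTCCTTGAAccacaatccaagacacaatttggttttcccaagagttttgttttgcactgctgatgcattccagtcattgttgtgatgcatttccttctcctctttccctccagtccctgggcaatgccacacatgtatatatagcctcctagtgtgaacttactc
LIFR middle start, chr5:38557468-38557717, minus strand: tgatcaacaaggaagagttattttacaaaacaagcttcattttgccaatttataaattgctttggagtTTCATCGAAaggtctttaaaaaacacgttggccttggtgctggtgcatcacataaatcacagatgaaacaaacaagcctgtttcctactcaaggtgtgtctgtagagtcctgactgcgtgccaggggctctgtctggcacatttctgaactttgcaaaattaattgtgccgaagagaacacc
IL6, chr7:22726950-22727199, plus strand: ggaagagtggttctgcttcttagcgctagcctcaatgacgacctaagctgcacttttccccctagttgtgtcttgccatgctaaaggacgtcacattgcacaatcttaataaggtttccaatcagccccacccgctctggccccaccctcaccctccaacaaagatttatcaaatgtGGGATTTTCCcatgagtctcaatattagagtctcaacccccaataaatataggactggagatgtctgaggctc
The IL11 window held 1 AP-1 match, which begins at position -96 from the start. The LIFR windows shown are those that held a match, 1 STAT match each, at -165 and -182. No motif matched in the IL6ST window, in a further LIFR window, or in those of OSMR, IL6R and IL11RA, and the IL6 window had 1 NF-kB match at -73. Among 35114 promoter windows of this length, 6.57% held the STAT motif, 6.57% the AP-1 motif, 0.527% the NF-kB motif and 1.65% the cAMP response element. None of the matches overlapped. A match is a description of letters, and no binding was measured.

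By raw counts the receptor chains fell into 3 with at least 1326 in every library and 2 with at most 68. The ligands fell into 3 with at least 232 counts in every library and 2 with at most 21. To compare genes, counts were divided by the length of the longest annotated transcript and expressed per kilobase of transcript and per 1000000 reads on genes. Library sizes were first scaled by TMM factors. On this scale OSMR was the most abundant with vehicle, at 40.1 ± 1.35 (SD, n = 2). It was followed by LIF at 35.4 ± 1.14, IL6ST at 25.4 ± 0.517 and IL11 at 22.1 ± 0.616. LIF stood above 83.8% of tested genes with a known length and IL6ST above 77.6%. On this scale LIFR was lower than its partner, at 5.04 ± 0.117, above 38.4% of tested genes, and CLCF1 was near it at 5.68 ± 0.446. IL6R was at 0.342 ± 0.0287 and IL6 at 0.142 ± 0.117. Both vehicle libraries kept every neighbouring pair of these 8 genes apart in this order. Lengths matter here. With the union of all exons LIF came first at 35.4 and OSMR second at 30.9, and with the median transcript length LIFR moved up to second place at 70.2, since the median length of its annotated transcripts is 757 bases and the longest is 10553.

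**Figure D1:**
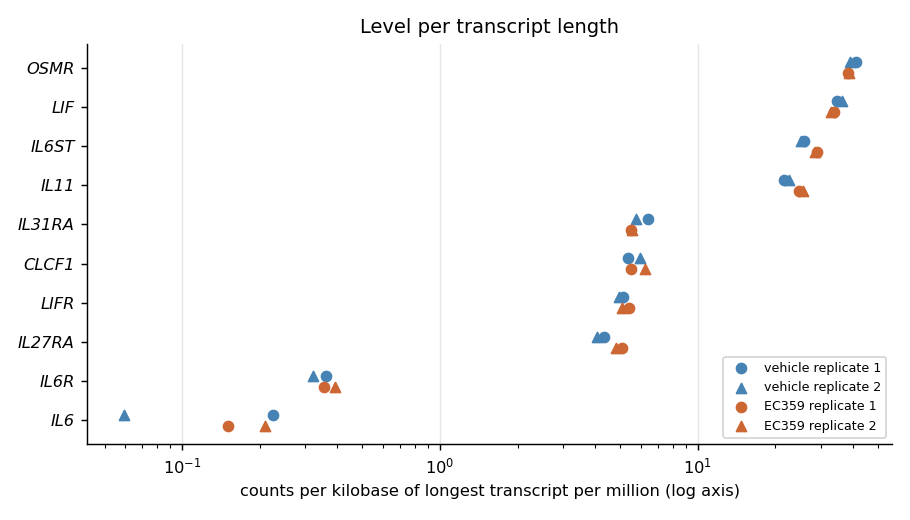
Counts per kilobase of longest transcript and per 1000000 reads on genes (library sizes scaled by TMM factors, log axis) for each gene in each library. Blue is vehicle and orange EC359, and circles and triangles are replicates 1 and 2. OSMR, LIF, IL6ST and IL11 lie near or above 22, LIFR and CLCF1 near 5 to 6, and IL6R and IL6 below 1; IL31RA and IL27RA are related receptor chains.

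None of the 8 tested genes passed the threshold, an adjusted p of 0.01 in the edgeR quasi-likelihood fit (Benjamini-Hochberg over 12706 genes). The 0 of 8 stands beside 1.09% of all tested genes, 0.299% called higher and 0.795% called lower. With a threshold of 0.05 for the adjusted p, 1 gene passed, which was IL6ST and higher, against 4.32% of tested genes (1.68% higher, 2.64% lower). Below an unadjusted p of 0.01 there were 2, IL6ST and IL11, against 9.88%. At an unadjusted p under 0.05 there were 3, with IL6ST and IL11 higher and LIF lower with EC359, against 21.6% of tested genes (10.7% higher, 11% lower). DESeq2 and limma voom also called 0 of the set, where they called 1.42% and 1.15% of all genes tested. The exact test of edgeR called 1 (IL6ST, higher), where it called 4.42% of all genes tested. Both EC359 libraries lay on one side of both vehicle libraries for 4 genes (IL6ST, IL11, LIF and OSMR), 2 higher and 2 lower, and 51.5% of tested genes did the same (26.1% higher, 25.4% lower). The median log2 fold change of the 8 genes was 0.091, against 0.0029 over all tested genes. In bulk RNA, fewer cells with a transcript and less of it per cell cannot be told apart.

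**Figure D2:**
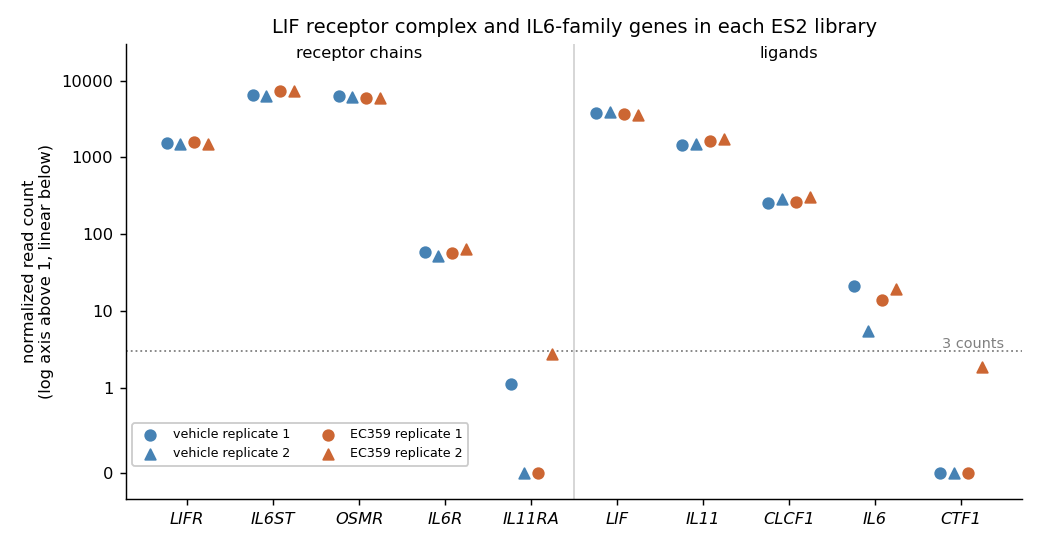
Normalized read counts (counts at the mean library size) of the 10 genes in each of the 4 libraries, on an axis that is logarithmic above 1 and linear below, with receptor chains on the left and ligands on the right. The 4 points of a gene nearly coincide for the abundant genes and spread apart for IL6, and IL11RA and CTF1 stay at or under 3 counts.

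LIFR, the receptor that EC359 inhibits, lies on chromosome 5 of GRCh37 from 38474770 to 38608456 on the minus strand. With vehicle it had 1372 counts in replicate 1 and 1326 in replicate 2, and with EC359 1823 and 1627 counts. Scaled to the mean library size these were 1525, 1475, 1612 and 1519 normalized counts, and the treatments overlapped. The log2 fold change was 0.062 (standard error 0.055, edgeR quasi-likelihood adjusted p = 0.555). Its 95% interval runs from a level lower by 4.04% to one higher by 13.6%. With 1 library left out the log2 fold change ran from 0.018 (without EC359 replicate 1) to 0.10 (without EC359 replicate 2). None of the 50-base windows of its longest transcript occurs in the transcripts of another gene.

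IL6ST, which encodes gp130, lies on the same chromosome from 55230923 to 55290850. Raw counts were 5908 and 5734 with vehicle and 8343 and 7754 with EC359. Normalized counts were 6566 and 6380 with vehicle and 7379 and 7240 with EC359, so that both treated libraries lay above both controls. The log2 fold change was 0.18 (standard error 0.034, edgeR quasi-likelihood adjusted p = 0.0203), which is 12.9% with a 95% interval of 7.14% to 19%. This gene ranked 255 by p among all tested genes and did not reach the threshold of 0.01. The call depended on the method. With each library's trend against GC content removed the log2 fold change was 0.14 and the adjusted p 0.000889, and with edgeR's exact test the adjusted p was 0.000905. With 1 library left out, the quasi-likelihood adjusted p of edgeR ran from 0.00326 (without vehicle replicate 1) to 0.39 (without EC359 replicate 1). Transcripts of 3 other annotated genes, among them the processed pseudogene IL6STP1, contain 10.3% of the 50-base windows of IL6ST, and reads with several alignments are tallied apart from genes in the tables.

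OSMR, the oncostatin M receptor chain, lies close to LIFR, from 38845960 to 38945698 on the plus strand. It had 5759 and 5484 counts with vehicle and 6749 and 6442 with EC359. Normalized, both treated libraries (5969 and 6015) were below both controls (6401 and 6102). The log2 fold change of -0.061 (standard error 0.036) had an edgeR quasi-likelihood adjusted p of 0.364 and a 95% interval from -0.14 to 0.020. It was -0.025 without vehicle replicate 1 and -0.10 without vehicle replicate 2. Annotated exons of RICTOR on the opposite strand overlap OSMR. The kit keeps strand, but the strand setting of the counting is not given in the sources used here.

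IL6R and IL11RA, the chains that bind IL6 and IL11, were scarce. IL6R, on chromosome 1 from 154377669 to 154441926, had 53 and 47 counts with vehicle and 65 and 68 with EC359. The log2 fold change was 0.12 with a 95% interval from -0.32 to 0.56 (edgeR quasi-likelihood adjusted p = 0.78), too wide to tell a change from none. With 1 library left out it ran from 0.031 (without vehicle replicate 2) to 0.21 (without vehicle replicate 1). IL11RA, on chromosome 9 from 34652159 to 34661899, had 1 and 0 counts with vehicle and 0 and 3 with EC359, at or under the floor of 3 counts in every library, and no fold is given. For IL11RA, 53.5% of the 50-base windows of the longest transcript occur in transcripts of other genes, mostly in a readthrough gene annotated over the same locus. How reads on such shared exons were assigned is not given in the sources used here, and its low count is uncertain for that reason.

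Among the ligands, LIF was the most abundant. The gene lies on chromosome 22 from 30636442 to 30642748. It had 3402 and 3557 counts with vehicle and 4156 and 3852 with EC359. Normalized counts were 3781 and 3958 with vehicle and 3676 and 3597 with EC359, both treated libraries being below both controls. The log2 fold change was -0.090 (standard error 0.040, edgeR quasi-likelihood adjusted p = 0.23). This is a difference of -6.02%, and the 95% interval from -11.7% to -0.0271% ends just short of 0. That depended on the setting. The unadjusted edgeR quasi-likelihood p was 0.0492, and it was 0.0101 with a replicate block and 0.128 with library totals. With 1 library left out the log2 fold change ran from -0.12 (without vehicle replicate 1) to -0.062 (without vehicle replicate 2).

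IL11, on chromosome 19 from 55875750 to 55881831, had 1308 and 1359 counts with vehicle and 1873 and 1845 with EC359. Normalized counts were 1454 and 1512 with vehicle and 1657 and 1723 with EC359, again without overlap. The log2 fold change was 0.19 (standard error 0.053, edgeR quasi-likelihood adjusted p = 0.0735), or 13.9% with a 95% interval of 5.05% to 23.5%. IL11 was not called. With the GC trend removed its log2 fold change was 0.21 and the edgeR quasi-likelihood adjusted p 0.00212, in a fit that called 7.76% of all tested genes. DESeq2 gave an adjusted p of 0.164. With 1 library left out the log2 fold change ran from 0.16 (without EC359 replicate 2) to 0.22 (without EC359 replicate 1). IL11 had at least 1308 counts in every library, where IL11RA, its own receptor chain, had at most 3.

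CLCF1, on chromosome 11 from 67131639 to 67141648, had 232 and 259 counts with vehicle and 300 and 323 with EC359. Its log2 fold change was 0.053 with a 95% interval from -0.19 to 0.30 (edgeR quasi-likelihood adjusted p = 0.829), and the treatments overlapped. Depending on the library left out, it ran from -0.041 to 0.14. IL6, on chromosome 7 from 22765503 to 22771621, was close to the limit of the data, with 19 and 5 counts with vehicle and 16 and 21 with EC359. Normalized, these were 21.1 and 5.56 with vehicle and 14.2 and 19.6 with EC359, so one control was the highest library and the other the lowest. Exons of STEAP1B, which had 1234 to 1398 counts, overlap IL6 on the opposite strand, and the same doubt about strand holds here as for OSMR. The fitted log2 fold change of 0.33 had a 95% interval from -0.80 to 1.46, and it was 1.58 without vehicle replicate 1 and -0.33 without vehicle replicate 2. CTF1, on chromosome 16 from 30907935 to 30914868, had 2 counts in EC359 replicate 2 and 0 in the other libraries, where a count of 0 allows up to 3 counts (counting error only).

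**Figure D3:**
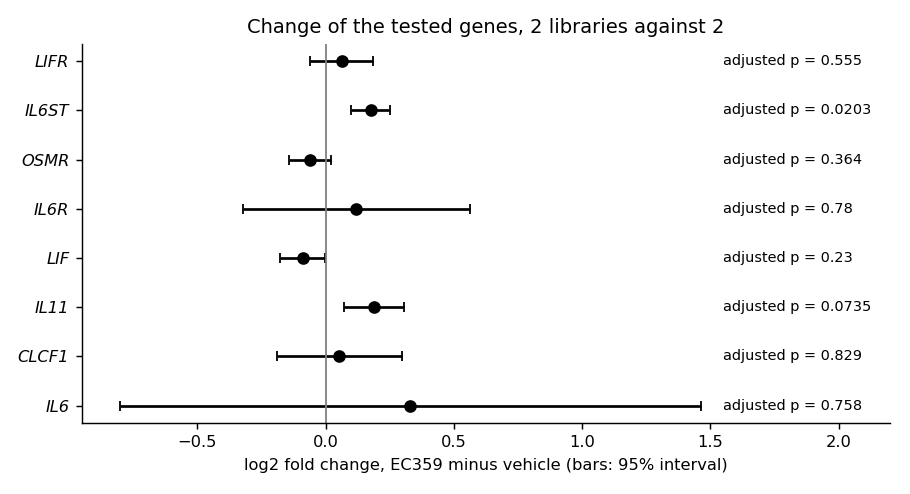
Log2 fold change of each tested gene, EC359 minus vehicle, with its 95% interval from edgeR's quasi-likelihood fit and the adjusted p over all tested genes. The intervals of IL6ST and IL11 lie above 0, that of LIF ends just below 0, and those of IL6R, CLCF1 and IL6 are wide.

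Ratios of raw counts within a library do not depend on how libraries are scaled. The ratio of LIF to IL6ST was 0.576 and 0.62 with vehicle and 0.498 and 0.497 with EC359, lower in both treated libraries. LIF to LIFR went from 2.48 and 2.68 to 2.28 and 2.37, again without overlap. IL6ST to OSMR was 1.03 and 1.05 with vehicle and 1.24 and 1.2 with EC359. In contrast, IL11 to IL6ST overlapped, at 0.221 and 0.237 against 0.225 and 0.238. With 2 libraries a treatment no permutation test of a ratio can reach 0.05, and these are given as values. Per length of the longest transcript, IL6ST exceeded LIFR by a factor of 5.03 and 5.06 with vehicle and 5.35 and 5.57 with EC359, and LIF exceeded LIFR by a factor of 6.76 and 7.31, then 6.22 and 6.45. Both directions turn with the median transcript length, on which LIFR was at 70.2 with vehicle, LIF at 61.5 and IL6ST at 32.3.

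Other ligands and receptors of the gp130 family were read from the same tables. Of 9 genes on this list, 2 were tested and 0 were called, against 1.09% of all tested genes. OSM had at most 2 counts in any library, and CNTF and EBI3 were also at 2 or fewer. CNTFR, IL27 and IL31 had 0 counts in every library. CLCF1 was therefore counted without its chain CNTFR. IL31RA, which pairs with OSMR to bind IL31, had 1338 and 1201 counts with vehicle and 1450 and 1386 with EC359 (log2 fold change -0.13, edgeR quasi-likelihood adjusted p = 0.254). Its level per length, 6.07 ± 0.459 (SD, n = 2) with vehicle, was not separated from that of CLCF1. IL27RA, which uses gp130 to bind IL27, had 324 and 304 counts with vehicle and 478 and 431 with EC359 (log2 fold change 0.24, edgeR quasi-likelihood adjusted p = 0.142).

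The relay from the receptor inward was also examined. Of 12 tested kinases, STATs and adaptors 0 were called, against 1.09% of all tested genes. Their median log2 fold change was 0.042, against 0.0029 over all tested genes. STAT5A, a transcription factor of the same relay, had 34 and 30 counts with vehicle and 51 and 59 with EC359 (log2 fold change 0.49, edgeR quasi-likelihood adjusted p = 0.261). PTPN11, which links the receptor to the ERK pathway, had a log2 fold change of 0.066, and GRB2, an adaptor, one of -0.068. STAT3, added outside the naming rule as the main effector of LIFR, had 1657, 1716, 2101 and 2037 counts, and its log2 fold change was 0.0034 with a standard error of 0.049. Both receptor shedding proteases had positive log2 fold changes and were not called, ADAM10 at 0.048 and ADAM17 at 0.081.

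Of 8 listed inhibitors of the signal (labelled feedback inhibitors in the figure) 7 were tested. At 0.01, 0 were called, against 1.09% of all tested genes. PIAS3, which blocks DNA binding by STAT3, passed 0.05 and was lower, against 4.32% of tested genes (2.64% lower). It had 1696 and 1726 normalized counts with vehicle and 1459 and 1391 with EC359 (log2 fold change -0.26, standard error 0.052, edgeR quasi-likelihood adjusted p = 0.0224). SOCS3, which is induced by STAT3 and inhibits gp130, had 1582 and 1658 normalized counts with vehicle and 1525 and 1606 with EC359, and the treatments overlapped (log2 fold change -0.049, standard error 0.054). SOCS2 was at -0.14 on the same scale, and CISH, with 6 to 18 counts, at 0.51.

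Genes that STAT3 is known to activate did not share a direction. Of 20 listed, 19 were tested, 12 had a positive and 7 a negative log2 fold change, and the median was 0.076. By edgeR's quasi-likelihood test 0 were called at 0.01, against 1.09% of all tested genes. The exact test called 1 of 19, where it called 4.42% of all genes tested. At an unadjusted p under 0.05, 3 were higher and 4 lower, against 10.7% and 11% of all tested genes. EGR1, an immediate early transcription factor, had the lowest p, with 1270 and 1302 normalized counts with vehicle and 1495 and 1610 with EC359 (log2 fold change 0.27, edgeR quasi-likelihood adjusted p = 0.0284). FOS, an AP-1 subunit, had a log2 fold change of 0.49 (edgeR quasi-likelihood adjusted p = 0.0831). BIRC5, an inhibitor of apoptosis, stood at -0.14 and VEGFA, an angiogenic factor, at -0.13 (edgeR quasi-likelihood adjusted p = 0.0563 and 0.0973).

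**Figure D4:**
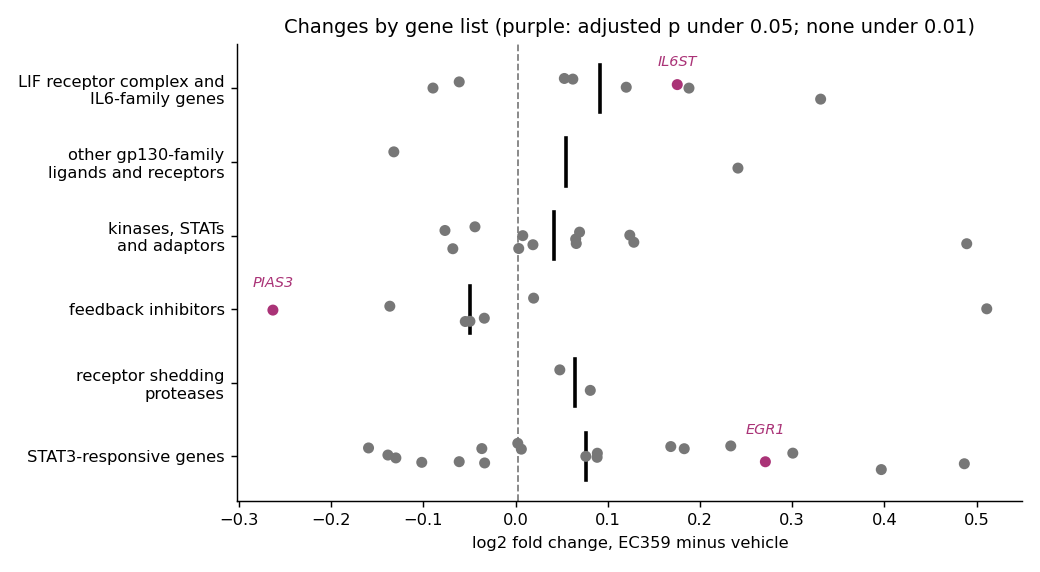
Log2 fold change (EC359 minus vehicle) of each tested gene in 6 lists, with a black bar at each list's median and a dashed line at the median of all tested genes, 0.0029. IL6ST, PIAS3 and EGR1 have an adjusted p under 0.05, and the STAT3-responsive genes spread to both sides of 0.

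For LIF and LIFR, the genes most like them over the 4 libraries were found by the Euclidean distance between centred log2 CPM values, among 11204 tested genes of at least 50 normalized counts. The nearest to LIF were E2F1, KIAA0922 and CNDP2, at distances from 0.00838 to 0.00929. The nearest to LIFR were PSAT1, ELF4 and ATF7IP, at 0.00632 to 0.00646. None of these 6 was called, which largely follows from choosing genes close to 2 that were not called.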

How the data were processed

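The authors prepared stranded TruSeq mRNA libraries from ES2 cells, sequenced single-end reads, aligned them with TopHat2 2.0.8b to UCSC hg19 and counted them over NCBI RefSeq genes with HTSeq. CASAVA 1.8.2 is also named in the submitters' processing notes. The deposited files list raw counts by gene symbol, without normalization. Of the reads with 1 alignment, 10.9% to 12% fell on no gene and 0.852% to 0.879% on several, and neither entered library sizes or tests.

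Genes were kept by filterByExpr (minimum count 10, minimum total 15), scaled with TMM factors and tested in R 4.3.3 with edgeR 4.0.16 (quasi-likelihood, 2 libraries against 2, no replicate block). Calls were made at the study's adjusted p of 0.01. The study applied it with DESeq, a different method, so its calls and the 139 genes called here need not match. Standard errors are the log2 fold change over the square root of F, and 95% intervals use the model's degrees of freedom. Depth was 25572494 to 31707553 counts, and the biological coefficient of variation 3.5%. Replicates differed by more than sampling noise (chi-square per degree of freedom 3.69 and 2.65).

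Places and transcript lengths came from GENCODE lifted to GRCh37, the assembly UCSC names hg19, and 91.8% of symbols matched. LIF, CLCF1 and CTF1 promoters were not used here. Named genes were the 10 members, for every list the 4 tested genes of lowest p (or fewer), and the nearest genes to LIF and LIFR. Some genes that the rule names are not reported here. The members and lists were chosen with earlier results of these data known. Alternatives were DESeq2 1.42.0, limma voom (limma 3.58.1) and the exact test of edgeR, scaling by RLE, by the upper quartile or by library totals, a filter of 10 counts in each library or none, other thresholds, trends against GC content or length removed, a replicate block, and each library left out. The test was also run on simulated counts, with changes larger than those of LIF, LIFR, IL6ST and IL11, and the outcome is not reported here.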

Additional observations from a re-analysis of the deposited data

How the results depend on the processing

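No gene of the set was called at an adjusted p under 0.01 with DESeq2, limma voom, RLE or upper-quartile scaling, library totals, either change of the filter or the length trend removed. The number called higher was 1 with edgeR's exact test and 1 at an adjusted p under 0.05. It was 2 with the GC trend removed and 2 at an unadjusted p under 0.01. No gene was called lower under any of these. The exact test called 561 genes in all (4.42%) and the GC correction 986 (7.76%), against 139 (1.09%), and the cause was not tested. Both called 1 of the listed inhibitors of the signal lower and 1 STAT3-responsive gene higher.

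Vehicle and EC359 libraries carry the same replicate numbers, which no source ties to a batch, and the deviations of same-numbered libraries had a correlation of 0.17 over tested genes. A replicate block called 2 of the set higher and 1539 genes in all (12.1% of tested genes). The replicate block with the GC trend removed called 2 and 1997 (15.7%). The adjusted p under the block was 4.06e-06 for IL6ST and 0.00281 for IL11.

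Log2 fold changes kept their sign in each alternative with all 4 libraries, from 0.14 to 0.20 for IL6ST, 0.19 to 0.21 for IL11, -0.097 to -0.066 for LIF and 0.033 to 0.086 for LIFR. With a library left out, LIFR ran from 0.018 to 0.10, OSMR from -0.10 to -0.025, IL6 ran from -0.33 to 1.58 and CLCF1 from -0.041 to 0.14, with -0.024 without vehicle replicate 1. Without EC359 replicate 1 the fit called 0 genes over all tested and without EC359 replicate 2 it called 2. In each of these fits 1 library stands for its treatment and is assumed to vary like the other group.

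Depth limited IL6R, IL6, IL11RA and CTF1, whose counts were at most 68 in any library.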

Other observations

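CDH5, which encodes the cadherin of endothelial junctions and was listed only as an endothelial marker, was well counted in these cells. It had 3118 and 3329 counts with vehicle and 3920 and 3805 with EC359, while PECAM1 and VWF, the other endothelial markers, had at most 2 counts in any library. Its log2 fold change was -0.031 (standard error 0.044), and it was not called.

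CD68 was likewise the 1 leukocyte marker with more than 2 counts, at 2296 to 2914 counts a library, and other cell types also express it.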
